A study of Sus scrofa with 5 samples.

Results

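The 10 genes described here carry arginine through nitric oxide to cyclic GMP: the arginine transporter SLC7A1, the arginine-recycling enzymes ASS1 and ASL, arginase 2 (ARG2), endothelial nitric oxide synthase (NOS3), the methylarginine-degrading enzymes DDAH1 and DDAH2, the soluble guanylate cyclase subunits GUCY1A1 and GUCY1B1, and the cyclic GMP-dependent kinase PRKG1. They were chosen by name, and each matched 1 of the 35670 features in the count matrices, so all 10 were found. The abdominal aorta was taken from castrated male Ossabaw pigs, a miniature breed used as a model of obesity and its metabolic complications. The obese group had 3 libraries from pigs fed a diet abbreviated HF/HFru (high-fat, high-fructose), and the control group had 2 libraries from pigs fed chow. Both diets began at 12 months of age, and their length is given as 6 months in the sample descriptions and 9 months in the series description. No other treatment is named, and the series title calls the aortae atherosclerotic and healthy. Nuclei from about 50 mm of frozen vessel were sorted on DRAQ5, a DNA dye, and captured with 10x Genomics 3′ chemistry in a separate reaction for each sample. The libraries are called pigs below. The labels number them as replicates and do not state more about their independence, so the p-values measure the spread between these samples. An exception is the fit that compares the diet difference between 2 cell classes. There a gene's own spread between samples did not enter the edgeR p-values.

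In the vessel wall, endothelial nitric oxide synthase makes nitric oxide from arginine, with citrulline as the second product. ASS1 and ASL turn citrulline back into arginine, SLC7A1 imports arginine from outside the cell, and arginase splits it into ornithine and urea. Methylated arginines block the synthase until DDAH enzymes degrade them. Nitric oxide diffuses into smooth muscle, where it activates the guanylate cyclase built from GUCY1A1 and GUCY1B1. The cyclic GMP made there activates PRKG1, which relaxes the muscle.

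After filtering, 41986 nuclei with 128321681 UMIs (unique molecular identifiers, counted molecules) were kept, 5437 to 11075 per pig. Median depth was 1693 to 2067 UMIs per nucleus in obese pigs and 2376 to 2428 in control pigs. Of 45379 distinct barcode sequences, 199 occurred in more than 1 library. Nuclei were clustered without the 10 genes or the other pathway genes named below, and clusters were named from marker lists. Endothelial-like nuclei numbered 210, 243 and 147 in obese replicates 1 to 3 and 458 and 221 in control replicates 1 and 2. Smooth muscle-like nuclei numbered 4184, 5616 and 5786 in obese pigs and 8736 and 4210 in control pigs. All 17 endothelial markers found in the files were detected in the endothelial-like nuclei of both groups, with summed levels of 6126 to 7254 CPM in obese pigs and 6739 to 8180 CPM in control pigs. All 10 smooth muscle markers found were detected in smooth muscle-like nuclei, at 9866 to 13128 CPM in obese pigs and 10044 to 11785 CPM in control pigs. These lists named the classes, so their levels there are no independent check of identity. Every marker of each list was also detected in the other class. Here CPM is the share of a gene in all UMIs of that class in that pig, scaled to 1000000.

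A pair of clusters made up the endothelial-like class, and the groups drew on them unequally. Cluster 12, led by COL23A1, MYRIP, BMP6 and NOS3, held 30.0%, 23.5% and 25.9% of the endothelial-like nuclei in obese replicates 1 to 3. It held 67.2% and 80.5% in control replicates 1 and 2. Cluster 13, led by CLEC2B, ADGRF5, PRKCH and FLT1, held the rest. Of the class's UMIs, cluster 12 gave 24.9% to 52.6% in obese pigs and 86.4% to 93.8% in control pigs. Its nuclei had a median of 1752 to 2295 UMIs in obese pigs and 6500.5 to 6603 in control pigs, whereas cluster 13 nuclei had 1251 to 1308 and 1085 to 1205.5. The main endothelial results below are therefore given for the class and then within each cluster. The smooth muscle-like class was likewise split, with clusters 0 and 4 mostly from obese pigs and clusters 2 and 3 mostly from control pigs.

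ASS1, the enzyme that joins citrulline to aspartate and limits arginine recycling, was at a few UMIs per pig in the endothelial-like nuclei of obese pigs. Its level was 5.60, 5.70 and 5.33 CPM in obese replicates 1 to 3, from 3, 3 and 2 UMIs, respectively. Control replicates 1 and 2 had 102 and 61.0 CPM, from 254 and 82 UMIs. The groups did not overlap, and with 2 or 3 UMIs in each obese pig the spread among those pigs cannot be judged. ASS1 fell by 3.79 on the log2 scale (SE 0.45, edgeR quasi-likelihood adjusted p = 0.00337 over 6613 genes). Pooling the UMIs of each group, the control level was 15.7 times the obese level, with an interval of 7.89 to 36.7 at 95% that covers counting error only.

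The ASS1 difference was present in both endothelial clusters. In cluster 12 its level was 7.1, 7.64 and 7.54 CPM in obese pigs and 112 and 61.9 CPM in control pigs. The obese values rested on 4 of 545096 UMIs over all 3 pigs, so the spread among them cannot be judged. The control values rested on 319 of 3412992 UMIs. The pooled control level was 12.7 times the obese level, with a counting interval of 4.93 to 47.0. ASS1 fell there by 3.41 on the log2 scale (SE 0.62, edgeR adjusted p = 0.0222), a fit in which 2.23% of 4745 genes were called. In cluster 13 it was 3.94, 5.06 and 4.12 CPM against 38.3 and 48.1 CPM, too few UMIs to pass the filter for testing. There the pooled control level, 17 of 422974 UMIs, was 8.96 times the obese level, 4 of 891889 UMIs, with a counting interval of 2.92 to 36.6. The ASS1 call in the class held in all 15 alternative analyses that tested it, with log2 values from -4.13 to -3.38 and adjusted p from 3.00e-11 to 0.0347.

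Smooth muscle-like nuclei had little ASS1, which stood at 1.37, 0.66 and 0.65 CPM in obese pigs and 1.37 and 0.58 CPM in control pigs. The groups overlapped, and the fitted difference was -0.24 on the log2 scale (SE 0.58, edgeR adjusted p = 0.900). Its diet difference in endothelial-like nuclei was more negative than that in smooth muscle-like nuclei by 3.79 on the log2 scale (an interaction of -3.79, SE 0.72, edgeR adjusted p = 1.75e-05). Fibroblast-like nuclei also carried ASS1, at 4.81, 4.98 and 4.93 CPM in obese pigs and 15.8 and 25 CPM in control pigs. That difference was not tested. The pooled control level was 3.76 times the obese level there, with a counting interval of 2.17 to 6.85.

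NOS3, the synthase itself, was the endothelial gene of the set. Its level in endothelial-like nuclei was 441, 171 and 258 CPM in obese replicates 1 to 3 and 638 and 721 CPM in control replicates 1 and 2. Both control pigs were above all 3 obese pigs, with obese replicate 1 the nearest. The fitted difference was -1.14 on the log2 scale (SE 0.39, edgeR adjusted p = 0.0989), so NOS3 did not pass the threshold. Of its alternatives only the edgeR fit with no filter on low counts called it (-1.33, adjusted p = 0.00248), and in the others that tested it the adjusted p was 0.0581 or more. Cluster 12 held the higher level, at 700, 260 and 241 CPM in obese pigs and 718 and 755 CPM in control pigs. Obese replicate 1 there was near the control pigs, and the fitted difference was -0.71 (SE 0.47, edgeR adjusted p = 0.476). In cluster 13 the level was 154, 142 and 268 CPM in obese pigs and 132 and 204 CPM in control pigs, with the groups overlapping. The fitted difference there had the other sign, 0.26 (SE 0.44, edgeR adjusted p = 0.882).

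Over all kept nuclei NOS3 measured 14.0, 5.55 and 4.84 CPM in obese pigs and 48.1 and 54.7 CPM in control pigs. ASS1 measured 1.70, 1.26 and 1.26 CPM against 9.96 and 6.51 CPM. The differences were -2.73 for NOS3 (SE 0.45, edgeR adjusted p = 0.0770) and -2.61 for ASS1 (SE 0.37, edgeR adjusted p = 0.0678) on the log2 scale, so neither was called. Of 19462 genes, 0.00514% were called in that comparison. Endothelial-like nuclei gave 1.58% to 2.75% of all UMIs in obese pigs and 6.76% to 7.11% in control pigs. In such whole-sample sums, fewer cells of a type and less RNA per cell cannot be told apart.

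**Figure D1:**
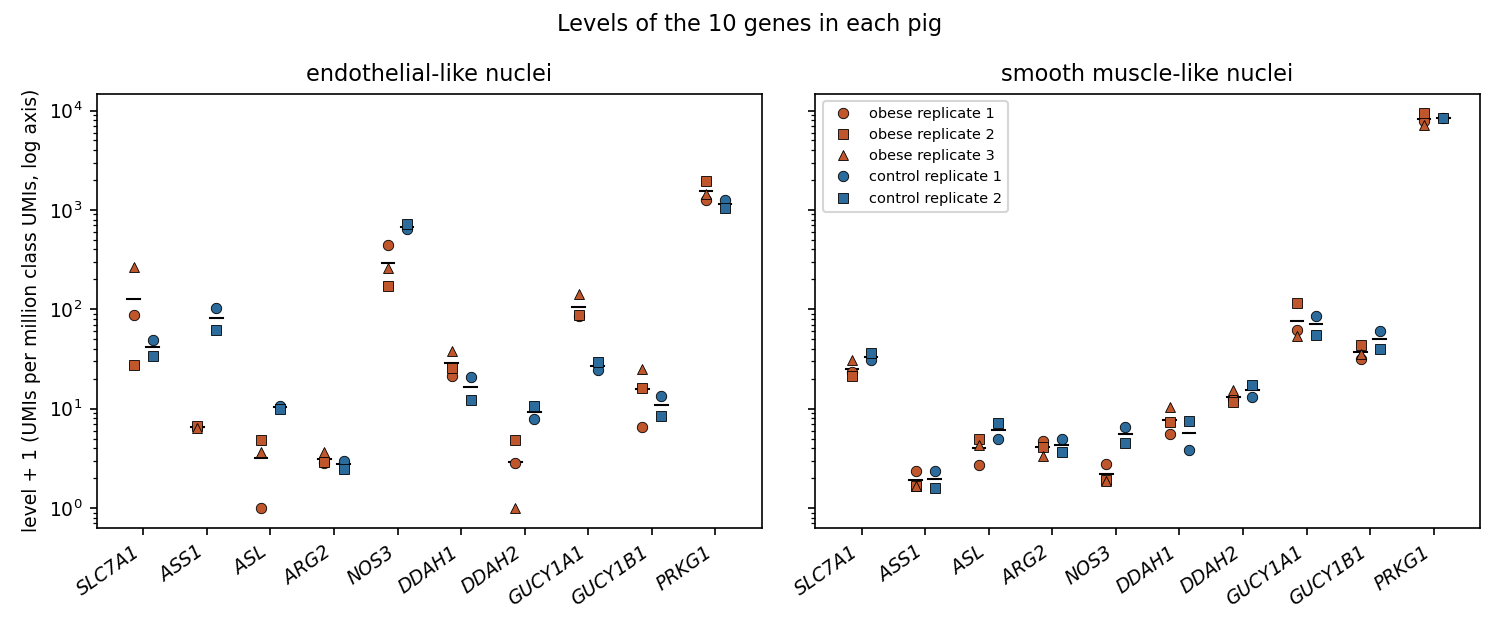
Level of each of the 10 genes in endothelial-like (left) and smooth muscle-like (right) nuclei. Each point is 1 pig, the short lines are group means, and the vertical axis is CPM plus 1 on a log scale. ASS1 in endothelial-like nuclei lies between 5.33 and 5.70 CPM in the 3 obese pigs and at 61.0 and 102 CPM in the control pigs.

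NOS3 in smooth muscle-like nuclei was at trace level, 1.80, 0.90 and 0.87 CPM in obese pigs and 5.52 and 3.52 CPM in control pigs. The groups did not overlap, and the fitted difference was -2.0 on the log2 scale (SE 0.46, edgeR adjusted p = 0.108). With DESeq2 the same sums gave -2.0 with an adjusted p of 0.0105, and edgeR with no filter on low counts gave -2.04 with an adjusted p of 0.00208. These values were 0.34% to 0.86% of the NOS3 level in the same pig's endothelial-like nuclei. The endothelial genes CYYR1, ADGRL4 and FLT1, from the low end of the markers, stood at 0.23% to 0.89%, 0.27% to 1.22% and 0.40% to 1.32% of theirs. Over all 17 endothelial markers the median was 1.21% to 2.62%, above NOS3 in every pig. Summed, the 17 stood at 8.94% to 15.5%, and the highest single marker at 72.2% to 203%. Endothelial-like nuclei also gave a larger share of UMIs in the control libraries, as stated above, and the part of RNA from other cells in this difference was not tested.

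SLC7A1, the main carrier of arginine into many cell types, varied among obese pigs. In endothelial-like nuclei it was 85.9, 26.6 and 264 CPM in obese replicates 1 to 3 and 48.2 and 32.7 CPM in control pigs. Obese replicate 2 was below both control pigs and obese replicate 3 well above them, so the groups overlapped. The fitted difference was 1.71 on the log2 scale (SE 0.76, edgeR adjusted p = 0.183), and it rested on single pigs. Without obese replicate 3 it was 0.50 with an edgeR adjusted p of 0.630, and without obese replicate 2 it was 2.25 with an edgeR adjusted p of 0.0342. With no filter on low counts it was 1.51 (edgeR adjusted p = 0.00431). In cluster 12 the values were 138, 38.2 and 520 CPM in obese pigs against 49.7 and 30.9 CPM, a difference of 2.66 (SE 0.82, edgeR adjusted p = 0.136). In cluster 13 they were 27.6, 22.8 and 124 CPM against 38.3 and 60.1 CPM. SLC7A1 in smooth muscle-like nuclei was 22.4, 20.4 and 29.6 CPM in obese pigs and 29.6 and 35.2 CPM in control pigs (-0.48 on the log2 scale, SE 0.28, edgeR adjusted p = 0.489).

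ASL, which completes arginine recycling, and ARG2, the mitochondrial arginase, were too sparse in endothelial-like nuclei to be tested. The control pigs had 24 and 12 ASL UMIs, and obese replicates 1 to 3 had 0, 2 and 1. These counts were 9.63 and 8.93 CPM against 0, 3.80 and 2.66 CPM, and the 0 allows up to 5.60 CPM. All ASL UMIs of control pigs lay in cluster 12, where the 3 obese pigs had 0. ARG2 gave 1 UMI in each obese pig and 5 and 2 in control pigs. ASL in smooth muscle-like nuclei was 1.71, 3.98 and 3.27 CPM in obese pigs and 3.96 and 6.11 CPM in control pigs (-0.82 on the log2 scale, SE 0.43, edgeR adjusted p = 0.443). ARG2 was 3.77, 3.13 and 2.32 CPM against 4.00 and 2.66 CPM there (-0.19, SE 0.39, edgeR adjusted p = 0.879).

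DDAH1 and DDAH2 clear the methylated arginines that inhibit the synthase. DDAH1 in endothelial-like nuclei was 20.6, 24.7 and 37.3 CPM in obese pigs and 20.1 and 11.2 CPM in control pigs. The obese pigs were higher by a narrow margin over control replicate 1, and the fitted difference was 0.82 on the log2 scale (SE 0.48, edgeR adjusted p = 0.303). In cluster 12 DDAH1 was 24.9, 99.3 and 75.4 CPM in obese pigs against 23.2 and 11.1 CPM (1.93, SE 0.64, edgeR adjusted p = 0.167). DDAH2 gave 1, 2 and 0 UMIs in the endothelial-like nuclei of obese pigs and 17 and 13 in those of control pigs, too few to pass the filter. DDAH2 in smooth muscle-like nuclei was 11.6, 10.5 and 14.6 CPM in obese pigs and 12.1 and 16.5 CPM in control pigs (-0.27, SE 0.31, edgeR adjusted p = 0.750). DDAH1 there was 4.63, 6.27 and 9.36 CPM against 2.85 and 6.47 CPM (0.49, SE 0.47, edgeR adjusted p = 0.700).

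GUCY1A1, the alpha-1 subunit of the nitric oxide receptor, was higher in the endothelial-like nuclei of obese pigs. Its level was 84.1, 87.4 and 141 CPM in obese pigs and 23.7 and 28.3 CPM in control pigs, without overlap. GUCY1A1 rose by 2.08 on the log2 scale (SE 0.38, edgeR adjusted p = 0.0123). The rise was not seen within cluster 13, where the level was 162, 109 and 189 CPM in obese pigs and 109 and 289 CPM in control pigs (-0.23, SE 0.48, edgeR adjusted p = 0.909). In cluster 12 it was lower in every pig, at 14.2, 22.9 and 52.8 CPM in obese pigs and 10.2 and 11.1 CPM in control pigs, from 3 to 22 UMIs per pig and not tested. Cluster 13 had the higher GUCY1A1 level in all 5 pigs and gave the larger share of nuclei in obese pigs, while within cluster 12 the 3 obese pigs were above both control pigs. The part of the makeup of the class in the rise was not tested. The call was also lost without control replicate 1 (adjusted p = 0.0752), without control replicate 2 (0.0519), without doublet removal (0.0582) and with nuclei gated singly by markers (0.106).

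**Figure D2:**
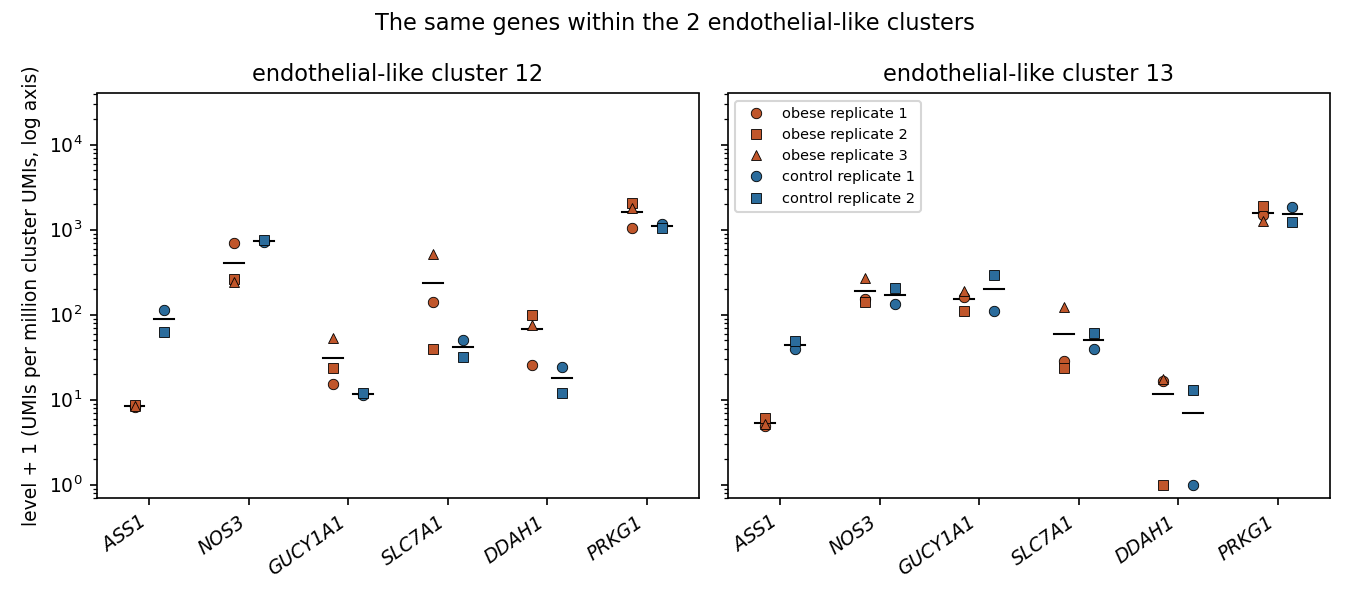
Level of 6 of the genes in each pig within endothelial-like clusters 12 (left) and 13 (right). Points are pigs, short lines are group means, and the vertical axis is CPM within the cluster plus 1 on a log scale. ASS1 is lower in the obese pigs in both panels, while GUCY1A1 in cluster 13 runs from 109 to 189 CPM in obese pigs and from 109 to 289 CPM in control pigs.

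In smooth muscle-like nuclei, where the receptor acts in vasodilation, GUCY1A1 was 60.7, 114 and 52.8 CPM in obese pigs and 84.7 and 54.0 CPM in control pigs. The groups overlapped, and the fitted difference was 0.05 on the log2 scale (SE 0.30, edgeR adjusted p = 0.961). GUCY1B1, the beta-1 subunit that completes the heterodimer, was 30.9, 42.3 and 34.5 CPM in obese pigs and 59.9 and 38.6 CPM in control pigs (-0.52, SE 0.24, edgeR adjusted p = 0.393). Obese replicate 2 was above control replicate 2, so these groups overlapped too. In endothelial-like nuclei GUCY1B1 was 5.60, 15.2 and 24.0 CPM in obese pigs and 12.4 and 7.44 CPM in control pigs, from 3 to 31 UMIs, and was not tested.

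PRKG1, the kinase at the end of the pathway, had overlapping levels in the smooth muscle-like nuclei of the groups. It was 7925, 9400 and 7222 CPM in obese pigs and 8406 and 8408 CPM in control pigs. Both control values lay inside the obese range, and the fitted difference was -0.11 on the log2 scale (SE 0.21, edgeR adjusted p = 0.867). Within smooth muscle clusters 1 and 3 the differences were -0.30 (SE 0.23) and -0.13 (SE 0.23), with edgeR adjusted p of 0.703 and 0.939.

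In endothelial-like nuclei PRKG1 was 1255, 1937 and 1454 CPM in obese pigs and 1267 and 1045 CPM in control pigs (0.48 on the log2 scale, SE 0.30, edgeR adjusted p = 0.339). That was 15.8%, 20.6% and 20.1% of the smooth muscle-like level in obese pigs and 15.1% and 12.4% in control pigs. The 10 smooth muscle markers, summed, stood at 13.4%, 19.8% and 18.0% of their smooth muscle-like level in the endothelial-like nuclei of obese pigs and at 11.5% and 8.53% in control pigs. MYH11, the smooth muscle myosin heavy chain, stood at 14.5%, 18.8% and 16.3% against 9.78% and 7.15%. The PRKG1 percentage was above that of the summed markers and of MYH11 in every pig. With the median share of the 10 markers taken off, 40.3, 118 and 244 CPM of PRKG1 were left in obese pigs. In control pigs 294 and 371 CPM were left. The part of smooth muscle RNA in the PRKG1 level was not tested. GUCY1A1 stood at 76.8% to 267% of its smooth muscle-like level in obese pigs and at 28.0% to 52.3% in control pigs, above the summed markers and MYH11 in every pig. The highest single marker stood at 48.7% in control replicate 1, above the 28.0% of GUCY1A1 there.

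**Figure D3:**
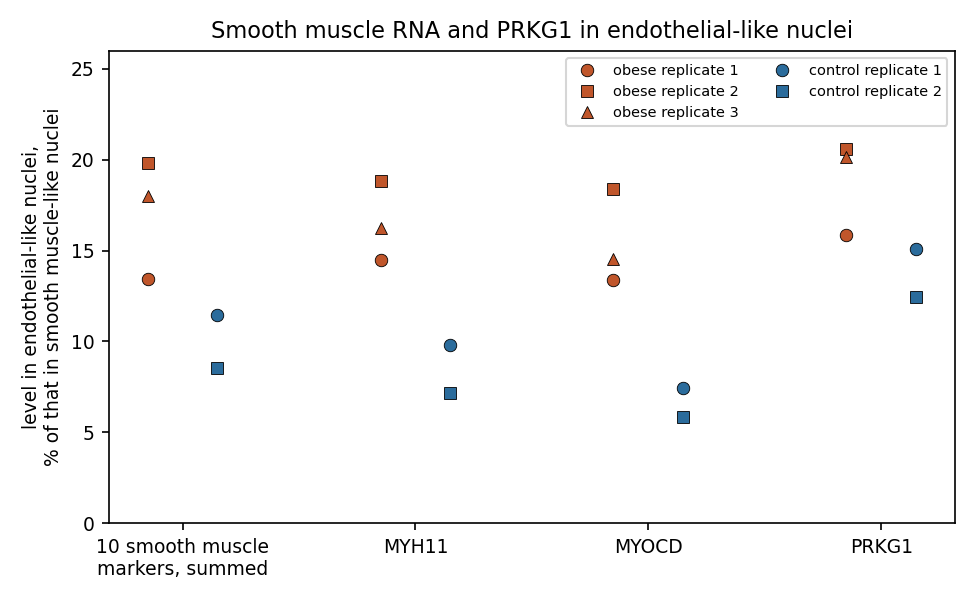
Level in endothelial-like nuclei as a percentage of the level in smooth muscle-like nuclei of the same pig, for 10 summed smooth muscle markers, MYH11, MYOCD and PRKG1. Each point is 1 pig, and PRKG1 runs from 12.4% to 20.6% where the summed markers run from 8.53% to 19.8%.

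Of the 10 genes, 6 passed the filter on low counts in endothelial-like nuclei, and 1 rose (GUCY1A1), 1 fell (ASS1) and 4 were not called. Of all 6613 genes tested there, 8.35% were called, 390 higher and 162 lower in obese pigs. The median log2 difference of the 6 was 0.65, beside -0.03 over all genes tested. The groups did not overlap for 4 of the 6, against 45.1% of all genes. The number called over all genes fell to 184 without control replicate 2, to 270 without control replicate 1 and to 367 without obese replicate 1. Cluster 12 alone gave 106 called genes and cluster 13 alone 0 of 4570 (0.0% called, 494 at an unadjusted p under 0.05 with edgeR, no other tool run).

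All 10 genes passed the filter in smooth muscle-like nuclei and 0 were called by edgeR, where 0.271% of 16595 genes were called, 39 higher and 6 lower. At an unadjusted p under 0.05 in the same fit there was 1 of the 10, NOS3, which DESeq2 called and limma-voom did not. Their median log2 difference was -0.26, beside 0.00 over all genes, and the groups did not overlap for 1 of them, NOS3, against 29.6% of all genes. The count over all genes rested on single pigs, being 2 without obese replicate 1, 2 without control replicate 1, 8 without control replicate 2 and 94 without obese replicate 3.

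The diet difference itself was compared between the 2 classes, with the pig as a block, for all 10 genes. It differed for 3, ASS1, GUCY1A1 and SLC7A1, where 4.13% of 16767 genes were called, 355 of them higher and 338 lower in endothelial-like nuclei. With DESeq2's size factors in edgeR the split was 441 and 239, and the median over all genes moved from -0.10 to 0.03. GUCY1A1 differed by 1.89 on the log2 scale (SE 0.39, edgeR adjusted p = 0.000127) and SLC7A1 by 1.65 (SE 0.41, edgeR adjusted p = 0.00276). The edgeR p-values of this fit are those of a normal curve at the log2 value over its SE. A gene's own spread between pigs therefore did not enter them. For SLC7A1 the SE was 0.76 in the endothelial-like fit alone. The GUCY1A1 call was lost in 4 of 13 alternatives, among them limma-voom (adjusted p = 0.0814) and the fit without control replicate 1. The SLC7A1 call was lost in 7 of 13 alternatives. Among them were DESeq2 (adjusted p = 0.186) and the edgeR fits without obese replicate 3 (0.338) and without control replicate 2. NOS3, with a negative fitted difference in both classes and no call by the filtered edgeR fit in either, gave an interaction of 0.63 (SE 0.38, edgeR adjusted p = 0.474).

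**Figure D4:**
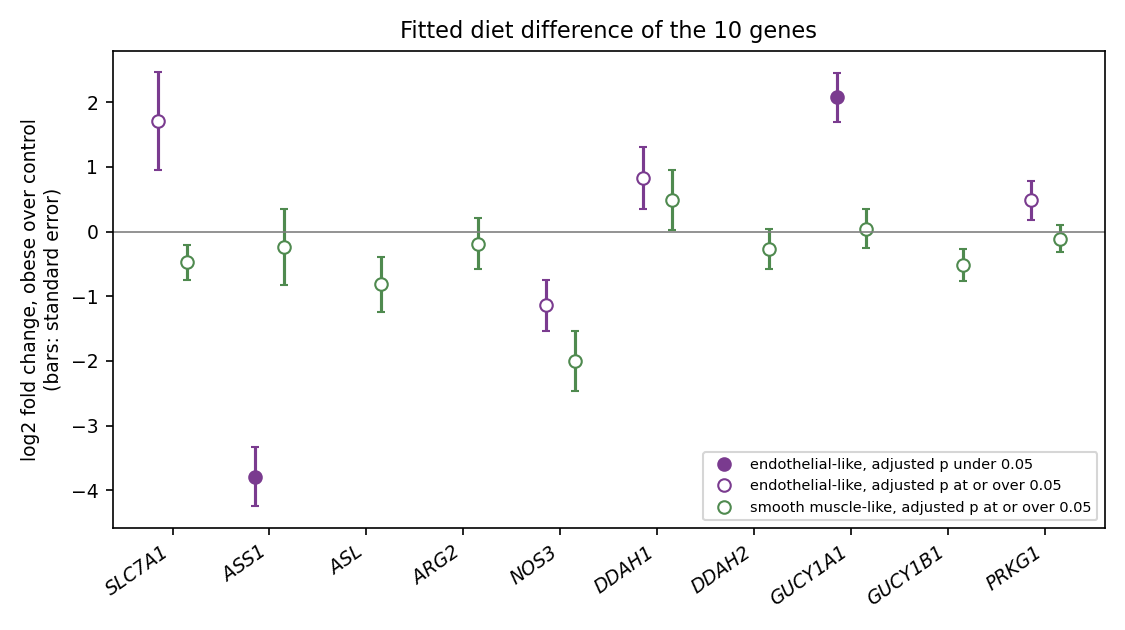
Fitted log2 difference, obese over control, for the genes tested in endothelial-like and smooth muscle-like nuclei. Bars are standard errors and filled points have an adjusted p under 0.05. ASS1 (-3.79) and GUCY1A1 (2.08) in endothelial-like nuclei are filled, and no smooth muscle-like point is.

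Across cell classes, averaged over pigs with at least 20 nuclei, NOS3 was highest in endothelial-like nuclei at 446 CPM (171 to 721 over pigs) and next in lymphatic endothelial-like nuclei at 62.3 CPM (12.6 to 140), ranges that did not overlap. The other 6 classes were at most 5.40 CPM. ASS1 was at 66.9 CPM in lymphatic endothelial-like nuclei (8.52 to 164, 3 pigs), 35.9 CPM in endothelial-like nuclei (5.33 to 102) and 11.1 CPM in fibroblast-like nuclei (4.81 to 25). These 3 ranges overlapped, and the next class was at 0.97 CPM. In lymphatic endothelial-like nuclei the 2 obese pigs had 8.52 and 28.7 CPM and the 1 control pig 164 CPM, so the class means mix the groups unequally. With the UMIs of all pigs pooled, the control level there was 5.05 times the obese level, with a counting interval of 2.17 to 11.9. That difference was not tested. PRKG1 was at 8272 CPM in smooth muscle-like nuclei (7222 to 9400) and 6761 CPM in pericyte-like nuclei (5888 to 8603), which overlapped. Fibroblast-like nuclei followed at 3462 CPM (2768 to 4173).

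Both guanylate cyclase subunits had their highest mean in pericyte-like nuclei, the contractile cells of small vessels, at 425 CPM for GUCY1A1 (163 to 948) and 219 CPM for GUCY1B1 (75.1 to 439). For GUCY1A1 that range overlapped the next class, lymphatic endothelial-like nuclei at 193 CPM (153 to 239, 3 pigs), and for GUCY1B1 it lay above fibroblast-like nuclei at 49.6 CPM (30.6 to 68.8). DDAH1 was highest in lymphatic endothelial-like nuclei, at 320 CPM (176 to 546), above the range in fibroblast-like (17.1 to 51.2) and endothelial-like nuclei (11.2 to 37.3). SLC7A1 had its highest mean in endothelial-like nuclei, 91.4 CPM (26.6 to 264), which overlapped T or NK cell-like nuclei at 82.6 CPM (40.5 to 117). That mean mixes the groups, with 125 CPM in obese pigs and 40.4 CPM in control pigs. In control pigs T or NK cell-like (109 CPM), pericyte-like (49.7 CPM) and macrophage-like nuclei (43.3 CPM) were higher. Unnamed cluster 7, outside these classes, was at 124 CPM in obese pigs and 92.0 CPM in control pigs. DDAH2 had overlapping ranges in its highest classes, Schwann cell-like nuclei at 16.4 CPM (8.60 to 29.1) and smooth muscle-like nuclei at 13.1 CPM (10.5 to 16.5) among them, and stood at 4.43 CPM (0 to 9.67) in endothelial-like nuclei. ASL was at most 10.8 CPM, in macrophage-like nuclei (6.98 to 18.0). ARG2 had its highest mean in T or NK cell-like nuclei, 27.4 CPM, but 12 of its UMIs came from obese replicate 3, 1 each from obese replicates 1 and 2 and 0 from the control pigs.

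**Figure D5:**
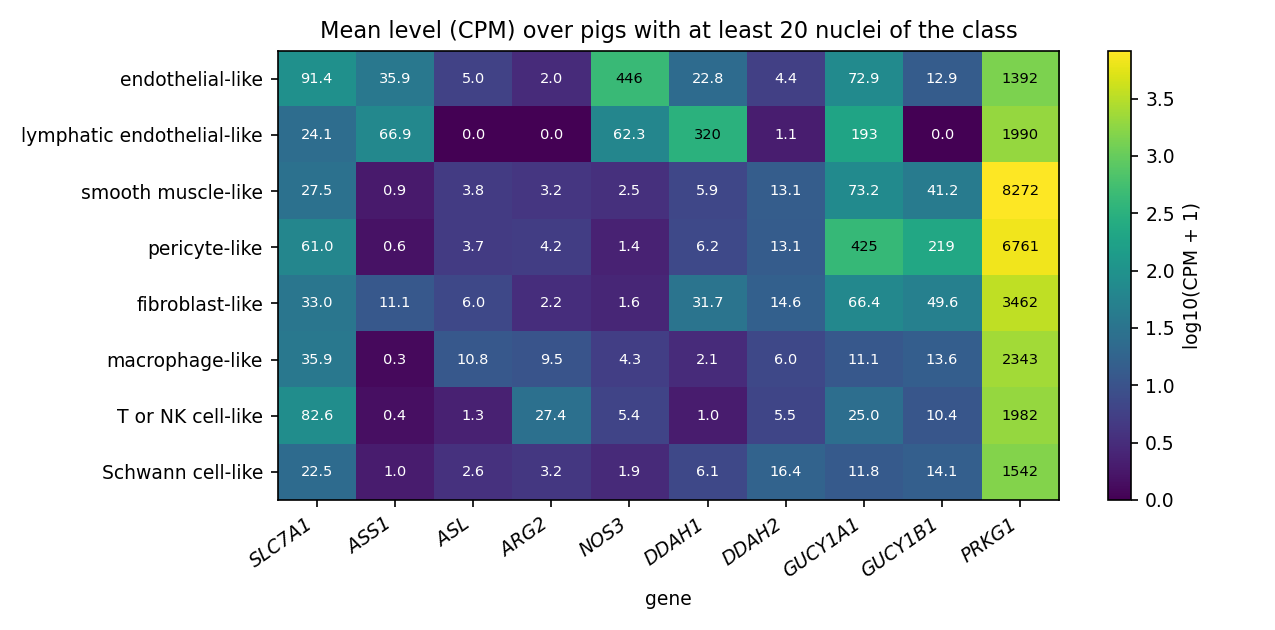
Mean level of each gene in 8 cell classes, in CPM, over pigs with at least 20 nuclei of the class. The colour is log10(CPM + 1), and comparisons run down a column. NOS3 stands at 446 CPM in endothelial-like nuclei and PRKG1 at 8272 CPM in smooth muscle-like nuclei.

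Among genes with a symbol and a mean of at least 20 CPM, likeness to 3 of the members was measured by Pearson's r of log2(CPM + 1) over 38 sums of 1 class in 1 pig. The sums share pigs and libraries, so r is a description. NOS3 was most like NWD2 (r = 0.92), EGFL7 (0.87) and BMX (0.87), the last 2 known as endothelial genes. EGFL7 is also on the endothelial marker list that named the class, so its pattern over classes was partly set by the naming. PRKG1 was most like GPC6 (0.93), IRAG1 (0.92), a PRKG1 substrate that restrains calcium release, and the actin-binding CALD1 (0.89). ASS1 was most like TBX1 (0.84), BCR (0.83) and STOX2 (0.81), of which TBX1 is on the lymphatic endothelial marker list.

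Other genes of the pathway were taken from lists of 106 genes, of which 99 were found by symbol. Among arginine transporters and other users of arginine, 0 of 7 tested were called in endothelial-like nuclei (median log2 difference 0.75). Over all genes, 8.35% were called there. SLC7A2, a second cationic amino acid transporter, was 934, 276 and 615 CPM in obese pigs and 297 and 379 CPM in control pigs, overlapping (0.94, SE 0.47, edgeR adjusted p = 0.239). Within cluster 12 alone SLC7A2 was 1711, 925 and 1531 CPM in obese pigs and 343 and 401 CPM in control pigs. There it rose by 2.05 on the log2 scale (SE 0.43, edgeR adjusted p = 0.0403). SLC38A9, the lysosomal arginine sensor, was overlapping between groups (-0.31, SE 0.37, edgeR adjusted p = 0.630).

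Of the nitric oxide synthases and NOS3 partners, 1 of 9 tested rose and 1 fell in endothelial-like nuclei (median -0.34), where 8.35% of all genes were called. CAV1, the caveolar protein that binds and holds back NOS3, was 146, 184 and 226 CPM in obese pigs and 600 and 708 CPM in control pigs. CAV1 fell by 1.74 on the log2 scale (SE 0.30, edgeR adjusted p = 0.0102). It fell by 2.02 in cluster 12 alone (adjusted p = 0.0214), and in cluster 13 alone the difference was -0.95 (adjusted p = 0.431). CALM2, 1 of the calmodulin genes whose protein activates NOS3, was 329, 220 and 290 CPM in obese pigs and 135 and 93.0 CPM in control pigs, a rise of 1.37 (SE 0.33, edgeR adjusted p = 0.0323) that was also called in cluster 12 alone (1.75, adjusted p = 0.0417). For tetrahydrobiopterin, the cofactor of the synthase, 0 of 2 tested genes were called by edgeR. GCH1, its rate-limiting enzyme, was 248, 133 and 993 CPM in obese pigs and 99.9 and 84.8 CPM in control pigs, all obese pigs higher (2.43, SE 0.77, edgeR adjusted p = 0.0803). GCH1 was called by DESeq2 (2.48, adjusted p = 0.00901), by edgeR with no filter (2.22, adjusted p = 2.83e-07) and by edgeR without obese replicate 2 (2.92, adjusted p = 0.0214). Without obese replicate 3 its difference was 1.08 (edgeR adjusted p = 0.126). PTS, the next enzyme, differed by 1.02 (SE 0.42, edgeR adjusted p = 0.162).

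Downstream, 0 of 3 tested genes of cyclic GMP synthesis were called in endothelial-like nuclei. Of cyclic GMP breakdown and export 2 of 8 were called, and of PRKG1 and its targets 2 of 10, all higher in obese pigs. Over all genes tested there 8.35% were called, 390 higher and 162 lower. PDE1C, a calmodulin-stimulated phosphodiesterase, was 18.7, 34.2 and 205 CPM in obese pigs and 3.61 and 5.21 CPM in control pigs (4.36, SE 1.04, edgeR adjusted p = 0.0320). Obese replicate 3 set much of that size, since without it PDE1C rose by 2.61 (edgeR adjusted p = 0.0341), and limma-voom did not call it (3.45, adjusted p = 0.103). PDE2A, a phosphodiesterase stimulated by cyclic GMP, was 26.2, 60.8 and 71.9 CPM against 15.2 and 12.6 CPM (1.95, SE 0.48, edgeR adjusted p = 0.0371). Cluster 13 had the higher PDE2A level in all 5 pigs, and the difference within it was -0.40 (adjusted p = 0.828). IRAG1 rose by 1.41 (SE 0.31, edgeR adjusted p = 0.0241). It too had the higher level in cluster 13 in all 5 pigs, and it was called in neither cluster alone (1.14 in cluster 12, adjusted p = 0.215, and 0.38 in cluster 13, adjusted p = 0.797). RGS2, a regulator of G protein signalling that PRKG1 activates, rose by 2.01 (SE 0.53, edgeR adjusted p = 0.0459). RGS2 was called in neither cluster alone (1.87 in cluster 12, edgeR adjusted p = 0.116, and 3.72 in cluster 13, adjusted p = 0.0612). The natriuretic peptide receptors NPR1 and NPR2, which make cyclic GMP at the membrane, differed by 0.13 and 0.26 (edgeR adjusted p = 0.847 and 0.790). Of the 8 smooth muscle markers tested in endothelial-like nuclei, 2 were called higher (median 0.99). The 10 markers summed to 1324.5, 2020 and 2362 CPM in obese pigs and 1349.5 and 857 CPM in control pigs, overlapping. IRAG1 was 148, 181 and 202 CPM against 77.9 and 61.0 CPM, without overlap. The part of smooth muscle RNA in its rise was not tested.

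Among genes of nitric oxide removal, 1 of 3 tested in endothelial-like nuclei fell, CYB5R3, a reductase that keeps haemoglobin alpha able to consume nitric oxide (-1.53, SE 0.36, edgeR adjusted p = 0.0302). Beside this and the next list counts, 8.35% of all genes were called in that class, 390 higher and 162 lower. In the methylarginine list 0 of 4 tested were called, and the arginine methyltransferases PRMT3 and PRMT2 differed by 0.09 and 0.38 (edgeR adjusted p = 0.890 and 0.485). Among transcription factors known to act on NOS3 or ASS1, 1 of 10 rose, HIF1A (1.59, SE 0.33, edgeR adjusted p = 0.0198). HIF1A was called in neither cluster alone (1.89 in cluster 12, edgeR adjusted p = 0.0619, and 0.85 in cluster 13, adjusted p = 0.477). KLF2, the flow-induced activator of NOS3, was not called. It was 144, 228 and 157 CPM in obese pigs and 75.8 and 158 CPM in control pigs (0.66, edgeR adjusted p = 0.282). Immediate early genes, which respond within minutes to stress and to tissue handling, rose in 9 of 12 (median 1.72). Their summed level was 2911, 3107 and 4423 CPM in obese pigs and 968 and 1026 CPM in control pigs, led by ATF3 (3.53), FOS (2.56), EGR1 (2.54) and FOSB (2.88). All 4 were called in cluster 12 alone (2.92 to 4.17). In cluster 13 alone none of the 4 was, with ATF3 at 1.88 (edgeR adjusted p = 0.134), FOS at 0.80 (0.589), EGR1 at 0.31 (0.828) and FOSB at 0.65 (0.752). Their part in the results above was not tested.

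The calls of some of these other genes in endothelial-like nuclei rested on single pigs, as listed below, and those called in the class kept their direction when a pig was left out. ATF3, FOS and EGR1 are not in that list. Their log2 values with 1 pig left out were 3.21 to 3.77, 2.25 to 2.73 and 2.15 to 3.04. Without control replicate 1 the calls of CALM2 (adjusted p = 0.0959), CYB5R3 (0.198), HIF1A (0.125), IRAG1 (0.107), PDE1C (0.0720), PDE2A (0.108) and RGS2 (0.228) were lost. Without control replicate 2 those of CALM2 (0.292), CAV1 (0.0555), CYB5R3 (0.0807), HIF1A (0.148), IRAG1 (0.224), FOSB (0.0519), PDE1C (0.0563) and PDE2A (0.158) were lost. Leaving out obese replicate 1 lost CALM2 (0.0869), CYB5R3 (0.104), HIF1A (0.0591) and RGS2 (0.113). Leaving out obese replicate 2 lost CYB5R3 (0.0819), PDE2A (0.0754) and RGS2 (0.0902), and leaving out obese replicate 3 lost CALM2 (0.0645), PDE2A (0.0918) and RGS2 (0.0503).

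In smooth muscle-like nuclei 0 genes of 7 of the 10 lists were called by edgeR in either direction among 53 tested, and the other 3 lists held 1 each. Of all genes tested there, 0.271% were called, 39 higher and 6 lower. RGS2 was 155, 143 and 139 CPM in obese pigs and 10.9 and 14.9 CPM in control pigs. The obese pigs were close together and far above the control pigs, and RGS2 rose by 3.44 on the log2 scale (SE 0.26, edgeR adjusted p = 0.00187), a call that held in all 16 alternatives. KLF2 was 47.9, 28.3 and 34.0 CPM in obese pigs and 4.93 and 5.11 CPM in control pigs, a rise of 2.82 (SE 0.34, edgeR adjusted p = 0.0204). DUSP1, an immediate early phosphatase, was 142, 108 and 259 CPM against 25 and 18.5 CPM, a rise of 2.93 (SE 0.41, edgeR adjusted p = 0.0337). Both of the latter calls were lost without control replicate 1 (adjusted p = 0.150 for KLF2 and 0.176 for DUSP1), control replicate 2 (0.0561 and 0.113) or obese replicate 1 (0.111 and 0.124), with log2 values between 2.57 and 3.13. Summed immediate early genes were 2170, 1417 and 3915 CPM in obese pigs and 766 and 1114 CPM in control pigs, with 1 of 12 called. The phosphodiesterases PDE3A and PDE1A, with high levels in this class, differed by 0.24 and 0.12 (edgeR adjusted p = 0.711 and 0.862).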

How the data were processed

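The deposited files hold raw UMI counts per gene and nucleus, whole numbers with no normalization, which the authors made with Cell Ranger from 10x 3′ libraries (version 5.0 per the labels, 7.1.0 per the file headers). The labels name the pig build Sscrofa11 and Seurat 5.0 for later steps. No coordinates or sequences are given here, since the genome at hand was another build. Barcodes in the files had at least 500 UMIs, and total depth was 21516249 to 47724416 UMIs per library.

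Of 45580 barcodes, 77 with fewer than 300 genes or over 5% mitochondrial UMIs were removed. A simulated-doublet score removed the top 0.8% per 1000 barcodes in each library, 3517 in all, whose median of 4682 to 9324 UMIs exceeded that of kept nuclei. The deposit does not say whether doublets had been removed before. Nuclei were scaled to 10000 UMIs and clustered on 3000 variable genes, 30 components and 20 neighbours with leidenalg 0.10.2 at resolution 1.0, which gave 24 clusters. A marker was on in a cluster from 20 CPM and 2 times the 25th percentile of its cluster levels. Naming took 3 markers that were on and a mean marker position of 0.4, scaled from 0 at that percentile to 1 at the top cluster. This last threshold was chosen with the values in view. Clusters 6, 7, 10, 19 and 20 stayed unnamed.

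Counts were summed per class and pig and tested with edgeR 4.0.16 (quasi-likelihood F-test, TMM, filterByExpr, Benjamini-Hochberg over all genes tested, threshold 0.05) in R 4.3.3. DESeq2 1.42.0 and limma 3.58.1 (voom) were alternatives. With 1 control pig left out, the spread of the remaining one was taken from the obese pigs. Analyses were tested on simulated data. Alternatives were other size factors, filters and tools, each pig left out, a replicate block, no doublet removal, a gate of at least 3 markers per nucleus, resolution 2.0 and at most 1% mitochondrial UMIs. Single clusters were added after seeing the data. Counting intervals and floors (3 UMIs) cover counting error only. In every comparison all 10 genes are given. From each pathway list the text names up to 4 genes of smallest adjusted p among those called, or the 2 of highest CPM where none was. The members, lists and rules were chosen with earlier results of these data known.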

Additional observations from a re-analysis of the deposited data

Results flagged for a closer look

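The difference between endothelial-like and smooth muscle-like nuclei in the response to diet was tested directly, as a class by diet term in a fit blocked by pig, by edgeR with adjustment over 16767 genes. It passed the threshold for 3 of the 10 genes, with log2 values, endothelial-like minus smooth muscle-like, of -3.79 for ASS1, 1.89 for GUCY1A1 and 1.65 for SLC7A1. The p-values of that fit leave out each gene's own spread between pigs. ASS1 was called in all 13 alternatives (adjusted p 2.29e-05 to 0.0169). GUCY1A1 and SLC7A1 were not called without doublet removal (adjusted p = 0.537 and 0.425) or with clusters at resolution 2.0 (0.146 and 0.196). In those settings the smooth muscle-like class was another set of nuclei. It held 1197 and 1378 nuclei of obese replicate 2, beside 5616 in the main analysis, and 9294 and 8703 of control replicate 1, beside 8736. In the main analysis the class by diet test passed for other named genes. Diet differences were more positive in endothelial-like nuclei for ATF3 (1.18), EGR1 (1.76), FOSB (1.64), GCH1 (1.27), PDE1C (2.33) and PDE2A (2.32). They were more negative there for CAV1 (-2.43), DUSP1 (-1.65), KLF2 (-2.18) and RGS2 (-1.43), of which RGS2 was called higher in obese pigs in both classes.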

How the results depend on the processing

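The numbers of called genes moved with the processing, and so did some levels of the members. Of 40 group mean levels of the 10 genes, 11 moved by more than 1 SD between pigs with the marker gate and 29 did not. That SD came from 2 or 3 pigs. In endothelial-like nuclei 552 genes were called; the count was 1173 with no filter on low counts, 235 with the marker gate, 350 with a replicate block, 106 in cluster 12 alone, 0 in cluster 13 alone and 184 to 565 with 1 pig left out. In smooth muscle-like nuclei 45 became 530 with DESeq2, 18 with limma-voom, 791 with no filter, 306 with a replicate block, 134 at resolution 2.0, 86 with the marker gate, 8 in cluster 1 alone, 28 in cluster 3 alone and 2 to 94 with 1 pig left out. For the class difference 693 became 416 with DESeq2, 242 with limma-voom, 280 at resolution 2.0, 456 with the marker gate, 249 without doublet removal and 242 to 614 with 1 pig left out. Over all kept nuclei 1 became 792 with DESeq2, 474 with no filter, 238 with a replicate block and 0 to 301 with 1 pig left out. Pigs shared only a replicate number, and same-numbered pairs deviated together with r of 0.04 and -0.01 in endothelial-like sums and 0.09 and -0.06 in smooth muscle-like sums. With the block, ASS1 and NOS3 over all nuclei passed the threshold (adjusted p = 0.0498 and 0.0409), and it changed no other member's call. Of 496 values of the 10 genes under alternatives, 446 kept direction and side of the threshold, 15 lost a call, 15 gained one and 20 changed sign, all 20 without a call, the cause not tested. The sign changes in members were, in log2, for cluster 13 alone NOS3 (0.26) and GUCY1A1 (-0.23) in endothelial-like nuclei. In smooth muscle-like nuclei they were DDAH2 in cluster 1 (0.017), GUCY1A1 in cluster 3 (-0.28), ASS1 at resolution 2.0 (0.070) and without doublet removal (0.20), and with the marker gate ARG2 (0.076), GUCY1A1 (-0.11) and SLC7A1 (0.28). Others were DDAH1 in the class difference with the marker gate (-0.33) and SLC7A1 over all nuclei with a replicate block (-0.29). Leaving out 1 pig turned the sign of some members in smooth muscle-like nuclei, giving ranges of -0.67 to 0.52 for ASS1, -0.42 to 0.10 for ARG2, -0.020 to 1.22 for DDAH1, -0.51 to 0.00087 for DDAH2 and -0.29 to 0.36 for GUCY1A1. The same held for DDAH1 in the class difference (-0.91 to 1.31) and, over all nuclei, for GUCY1A1 (-0.42 to 0.12) and SLC7A1 (-0.25 to 0.73). Among other pathway genes in endothelial-like nuclei, the sign turned in cluster 12 for PRMT2 (-0.073) and PRMT3 (-0.021), in cluster 13 for NPR1 (-1.13) and PDE2A (-0.40), with the marker gate for NPR1 (-0.12) and NPR2 (-0.0035), without doublet removal for PRMT3 (-0.093), with no filter for NPR1 (-0.073) and PRMT3 (-0.10) and with a replicate block for NPR2 (-0.25). With 1 pig left out the ranges there were -0.13 to 0.27 for NPR1, -0.26 to 0.63 for NPR2 and -0.065 to 0.29 for PRMT3. In smooth muscle-like nuclei the sign turned in cluster 3 for GCH1 (-0.072), PRMT3 (0.055) and SLC38A9 (0.057), at resolution 2.0 for NPR1 (-0.15), without doublet removal for HSP90AA1 (-0.052) and with a replicate block for NPR1 (-0.010) and PTS (0.061). With 1 pig left out the ranges were -0.24 to 2.42 for HSP90AA1, -0.30 to 0.63 for NPR1, -0.11 to 0.50 for PRMT2 and -0.092 to 0.064 for PTS. Depth limits the endothelial-like values: ASL, ARG2, DDAH2 and GUCY1B1 were too sparse to test, and obese pigs had 375521 to 535280 UMIs in that class.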

Other observations

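The guanylate cyclase subunits were also measured in pericyte-like nuclei, where the groups were not tested. GUCY1A1 there was 219, 334 and 163 CPM in obese replicates 1 to 3 and 948 and 460 CPM in control replicates 1 and 2, so both control pigs were higher. GUCY1B1 was 193, 228 and 75.1 CPM in obese pigs and 439 and 161 CPM in control pigs, which overlapped. These rest on 57 to 187 nuclei per pig. The class is small, and its PRKG1 level overlapped between groups, 5888 to 8603 CPM in obese pigs and 6259 and 6665 CPM in control pigs.

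In lymphatic endothelial-like nuclei DDAH1 was 546, 239 and 305 CPM in obese pigs and 176 and 130 CPM in control pigs, from 9 to 69 nuclei and 4 to 75 UMIs per pig. A pair of unnamed clusters also had high PRKG1 levels, beside 7222 to 9400 CPM in smooth muscle-like nuclei: 8996 to 16402 CPM in obese pigs and 11466 and 12881 CPM in control pigs in cluster 6, led by TRPC4, SERPINE2 and ALDH1A2, and 6701 to 10625 CPM over all 5 pigs in cluster 7, led by IL1RL1, GPRC5A and FLNC. ARG2 in cluster 7 was 306 CPM in control replicate 1, from 27 UMIs in 28 nuclei, and 5.22 to 29.5 CPM in the other 4 pigs.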
